A study of Mus musculus with 31 samples.

Results

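The microRNA profile of the right hippocampus was described in wild-type C57Bl/6 J mice that received water. The group was taken from the labels by genotype and treatment, and it holds 7 of the 31 libraries of the series, each labelled as a separate biological replicate (WT-water 1 to WT-water 7). The other libraries come from wild-type mice and from mice lacking the serotonin transporter (5-HTT KO), in standard housing or after 4 weeks of exercise or corticosterone, and are not described. Ages are not given in the sources used here. Small RNA was ligated to adapters and sequenced on an Ion Torrent instrument, and the values are read counts for 1966 mature mouse microRNAs. A sample code in the labels begins with G for libraries 1 to 5 and with H for libraries 6 and 7, with no stated meaning. With a single group, no group test was made, and every ± below is the standard deviation (SD) over the 7 libraries.

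MicroRNAs are short RNAs that guide Argonaute proteins to messenger RNAs and lower their translation or stability. A hairpin precursor is cut by Drosha and Dicer, and either the arm nearer its 5′ end (5p) or the arm nearer its 3′ end (3p) can be kept as the mature strand. Bases 2 to 8, the seed, do most of the target pairing, so microRNAs with a common seed form a family, and hairpins that lie side by side in the genome are often cut from a common transcript. In the hippocampus, a region for memory formed mostly of excitatory neurons, miR-124, miR-9, miR-128, miR-138 and miR-132 are known as neuron-enriched microRNAs.

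The mature sequences of the most abundant families are given first, because family sums and the close copies discussed later rest on them. Sequences are from RefSeq (GRCm38.p6), written 5′ to 3′ with the seed in capitals.
miR-29b-3p: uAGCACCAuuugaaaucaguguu
miR-29a-3p: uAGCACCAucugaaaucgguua
miR-29c-3p: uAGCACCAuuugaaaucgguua
miR-128-3p: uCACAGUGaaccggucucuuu
miR-9-5p: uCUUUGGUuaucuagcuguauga
miR-9-3p: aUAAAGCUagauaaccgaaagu
miR-138-5p: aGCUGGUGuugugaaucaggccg
miR-125b-5p: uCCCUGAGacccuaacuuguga
miR-26a-5p: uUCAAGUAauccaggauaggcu
miR-218-5p: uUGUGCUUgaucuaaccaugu
let-7c-5p: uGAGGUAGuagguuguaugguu
let-7f-5p: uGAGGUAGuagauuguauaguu
let-7a-5p: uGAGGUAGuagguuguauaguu
miR-30c-5p: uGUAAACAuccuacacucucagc
miR-99a-5p: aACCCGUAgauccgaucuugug
miR-100-5p: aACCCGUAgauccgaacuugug
miR-204-5p: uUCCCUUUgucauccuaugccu
miR-434-3p: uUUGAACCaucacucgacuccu
miR-1298-5p: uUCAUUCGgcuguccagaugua
With positions counted from 1 at the 5′ end of the first-named sequence, miR-29a-3p and miR-29c-3p differ by C10U alone, miR-99a-5p and miR-100-5p by U16A alone, let-7c-5p and let-7a-5p by G19A alone, and let-7a-5p and let-7f-5p by G12A alone. Reads of such pairs can be told apart only by that base. Sequence was matched for 1675 of the 1966 names, and these names held 69.8 ± 2.84% of the counts.

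Between 1639753 (library 6) and 4052174 (library 4) counts were assigned to mature microRNAs per library, with a mean of 2830878 ± 837148. At least 1 read was found for 978 ± 44.6 microRNAs per library (906 in library 6 to 1034 in library 4). Over the 7 libraries, 698 microRNAs were detected in every library and 604 in none. A count of 0 in a library allows a share of up to 1.15e-04% of its counts on average (3 counts of the total, for counting error only). Each pair of libraries differed by more than sampling noise (chi-square over degrees of freedom 20.1 or more), so each counted once. Across the 250 microRNAs with a mean of at least 100 counts per 1000000, Spearman correlations of log2 levels lay between 0.940 (libraries 1 and 6) and 0.988. Levels below are counts per 1000000 of a library's total (CPM). Ligation to adapters can favour some microRNAs over others, so the order between microRNAs was measured on the read scale only.

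A small set of neuronal and widely expressed microRNAs held most of the reads. The 20 microRNAs at or above 10000 CPM held 69.3% of the counts, the 92 at or above 1000 CPM held 93.2%, and the 250 at or above 100 CPM held 99.02%. Between 5 and 8 microRNAs made up 50% of a library's counts (mean 6.57 ± 0.976), and 68 ± 3.61 made up 90%. The 10 most abundant microRNAs held 57.5 ± 1.81% (lowest 54.9%, median 57.3%, highest 59.97%).

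miR-124-3p, which promotes and maintains neuronal identity by lowering non-neuronal transcripts, was first in every library. Its share of counts was 21.7% at the lowest (library 4), 23.4% at the median and 28.8% at the highest (library 6), a mean of 24.8 ± 2.82%. Its mean level was 3.48 times that of the second microRNA, miR-29b-3p, a member of a family that rises as neurons mature. miR-29b-3p had 55406 CPM at the lowest, 69501 at the median and 83256 at the highest, and was second in all 7 libraries. miR-128-3p, which tunes neuronal excitability, ranked no higher than 3 and no lower than 4 in the libraries. Its levels were 47384 CPM at the lowest (library 6), 52098 at the median and 59742 at the highest (library 7).

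**Figure D1:**
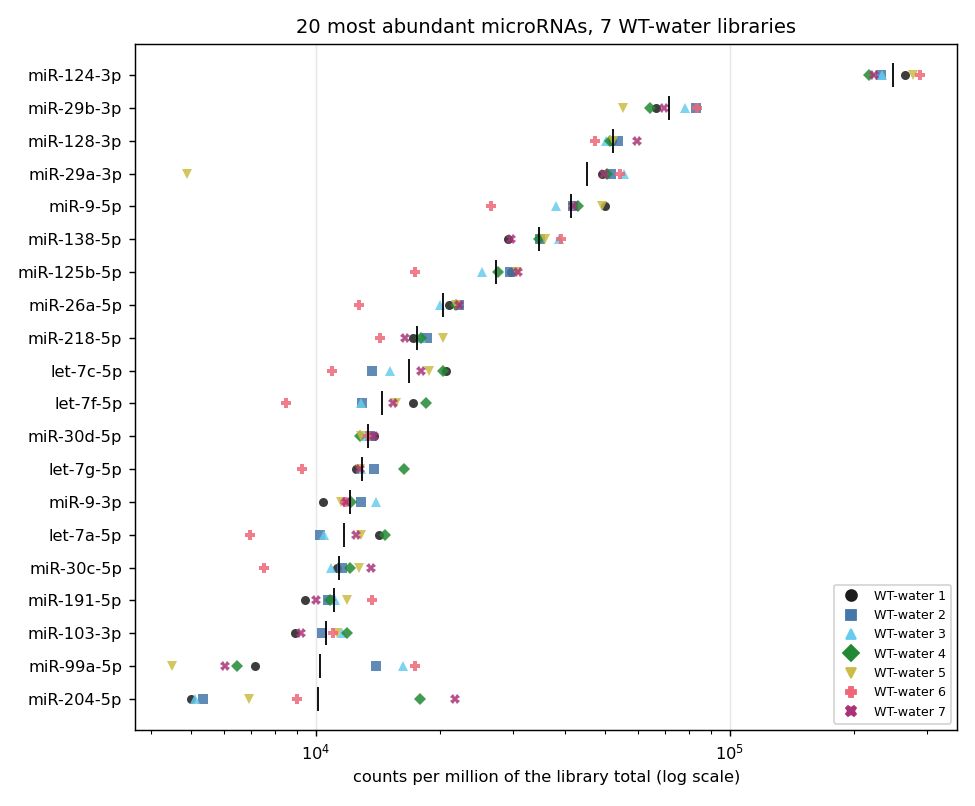
CPM (log scale) of the 20 most abundant microRNAs; each symbol is 1 of the 7 WT-water libraries and the vertical tick is the mean. miR-124-3p stands apart at 217384 to 288399 CPM, library 5 stands far to the left for miR-29a-3p (4884 CPM), and miR-99a-5p and miR-204-5p also spread widely.

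The order further down was less fixed. Of the 19 pairs of neighbours among the 20 most abundant, 4 kept the same order in 7 of 7 libraries and 15 did not. The constant steps were miR-124-3p over miR-29b-3p, miR-29b-3p over miR-128-3p, miR-125b-5p over miR-26a-5p and let-7c-5p over let-7f-5p. After miR-128-3p came miR-29a-3p, miR-9-5p, miR-138-5p, miR-125b-5p, miR-26a-5p, miR-218-5p and let-7c-5p, and 6 of these 10 leading microRNAs were among the 10 most abundant of every library. The next 10 were let-7f-5p, miR-30d-5p, let-7g-5p, miR-9-3p, let-7a-5p, miR-30c-5p, miR-191-5p, miR-103-3p, miR-99a-5p and miR-204-5p. From miR-30d-5p to miR-204-5p each level lay between 10145 and 13370 CPM on average, and no step in that stretch held in more than 5 of 7 libraries. Of all 20, 13 were among the 20 most abundant in every library.

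miR-9, a regulator of neuronal differentiation, was unusual among the leading hairpins in that both arms were abundant. miR-9-5p had 26538 CPM at the lowest (library 6), 41933 at the median and 49931 at the highest (library 1). miR-9-3p, with a different seed, had 10403 CPM at the lowest (library 1), 11852 at the median and 14015 at the highest (library 3). The 5p arm held 76.9 ± 4.57% of the reads of the miR-9 hairpins, which lie on chromosomes 3, 7 and 13 and share both mature sequences. miR-138-5p, which limits dendritic spine growth, had 29084 CPM at the lowest, 34779 at the median and 39219 at the highest. miR-218-5p, encoded in introns of Slit2 and Slit3, had 14274 CPM at the lowest, 17971 at the median and 20314 at the highest. These libraries overlapped in order: library 6 was highest for miR-138-5p and lowest for miR-218-5p and miR-9-5p.

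The activity-regulated pair miR-132 and miR-212, which are made from a common transcript downstream of CREB, was measured at moderate levels. miR-132-3p had 2396 CPM at the lowest, 2560 at the median and 3258 at the highest, and miR-212-3p had 1188, 1390 and 1559 CPM. The ratio of miR-132-3p to miR-212-3p was 1.96 ± 0.175 and lay between 1.75 and 2.17 in the 7 libraries. miR-16-5p, reported elsewhere to target the serotonin transporter, had 4844 CPM at the lowest (library 6), 5488 at the median and 6606 at the highest (library 5). miR-135a-5p, which is reported to act on serotonin signalling too, had 1012 CPM at the lowest, 1427 at the median and 1540 at the highest. miR-335-5p, encoded in an intron of the imprinted gene Mest, had 821 CPM at the lowest, 928 at the median and 1214 at the highest, and its 3p partner had 58.2, 70.1 and 101.9 CPM.

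Grouped by seed, 1675 names fell into 1395 seeds, of which 186 were shared by several names. The 10 largest families held 44.3 ± 2.84% of all counts (40.04% to 46.7%). miR-124-3p is outside this grouping because it was not matched to a sequence. The largest was the miR-29 family (seed AGCACCA), with 6.38% at the lowest (library 5), 12.7% at the median and 14.9% at the highest (library 6). miR-29b-3p made up 57.1% of it, miR-29a-3p 36.1% and miR-29c-3p 6.86%. The let-7 family (seed GAGGUAG), which restrains cell growth and marks differentiated cells, came second with 11 names, all detected. It had 5.10% at the lowest (library 6), 8.09% at the median and 9.54% at the highest (library 4). Its reads were divided more evenly than those of miR-29: let-7c-5p held 21.7%, let-7f-5p 18.7%, let-7g-5p 16.7% and let-7a-5p 15.2% of the family.

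Below these, miR-128-3p (5.24 ± 0.381% of counts), miR-9-5p (4.15 ± 0.782%) and miR-138-5p (3.46 ± 0.399%) stood alone with their seeds. The miR-125 family (seed CCCUGAG) held 3.48 ± 0.559%, 78.3% of it from miR-125b-5p and 21.6% from miR-125a-5p. The miR-30 family (seed GUAAACA) held 2.47 ± 0.375% from its sequence-matched members miR-30c-5p, miR-30a-5p, miR-30e-5p and miR-384-5p. With miR-30d-5p and miR-30b-5p added by name, its share was 4.203 ± 0.442% and its rank 4, where without them it was 7. The miR-26 family held 2.09 ± 0.352%, of which miR-26a-5p, encoded in introns of Ctdspl and Ctdsp2, made up 97.1%. The miR-218 seed held 1.76 ± 0.188%. The miR-99 family (seed ACCCGUA) held 1.38 ± 0.602%, and its coefficient of variation (CV, the SD as a percent of the mean) of 43.5% was the highest of the 10.

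Library 6 stood low for several families at the same time. It was the lowest library for 9 of 9 let-7 family members at or above 100 CPM, 4 of 4 sequence-matched members of miR-30, 2 of 2 of miR-125 and 2 of 2 of miR-26. Of the members added to miR-30 by name, miR-30b-5p was lowest in library 6 too, while the more abundant miR-30d-5p was at its median there (13406 CPM) and lowest in library 4 (12805 CPM). It was the highest for 3 of 3 members with the miR-99 seed. The counts over sequence-matched members were the same after TMM scaling and with DESeq2 size factors. miR-26a-5p had 12758 CPM in library 6 and 19974 to 22234 CPM in the other 6 libraries, so that its CV of 16.8% was 4.10% without library 6. miR-125b-5p had 17417 CPM in library 6 and 25185 to 30836 CPM elsewhere. Library 6 had the smallest total count. Of the 250 microRNAs at or above 100 CPM it was the lowest library for 84 and the highest for 54, while library 1 was the lowest for 75. The first principal component of log2 levels took 34.6% of the variance and placed library 6 (score 5.74) opposite library 1 (score -3.33). Its largest weights belonged to miR-6236 (2.16), to miR-677 (1.85 for the 3p arm, 1.84 for the 5p arm) and to miR-3535 (1.78). Weights were smaller in size for let-7a-5p (-0.90), miR-125b-5p (-0.59), miR-26a-5p (-0.58) and miR-30c-5p (-0.55). The component therefore does not stand for the low families alone. The part of depth, sample handling or dissection in how library 6 differed was not tested.

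The miR-29 family carried the widest departure of a single library among the 20 most abundant microRNAs. miR-29a-3p had 4884 CPM in library 5, against 49169 to 55719 CPM in the other 6 libraries. This was 9.42% of their mean of 51860 CPM, while those 6 had a CV of only 5.07%. miR-29c-3p, which differs from it at a single base, had 3471 CPM in library 5, which was 36.8% of the mean of the others, and miR-29b-3p was at 74.8%. The opposite arm of the same hairpin, miR-29a-5p, was at 92.3% in library 5 (151 CPM, against 138.5 to 190.9 CPM in the others). The ratio of miR-29a-3p to miR-29b-3p was therefore 0.0881 in library 5 and 0.623 to 0.788 in the other libraries. The 5p share of the miR-29a hairpin was 3.00% in library 5 and 0.270% to 0.367% elsewhere. Nothing in the labels sets library 5 apart, and the source of the low count was not tested.

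By genomic position, hairpins of the same strand were chained where they lay within 10 kb of each other. MicroRNAs with copies in several places were left out of the sums. Names not matched to a sequence had no position here and entered no cluster, miR-30d-5p (13370 CPM) and miR-30b-5p (4003 CPM) among them. Sums and ranks of clusters therefore cover sequence-matched names only, and a cluster of unmatched names would be missed. This gave 71 clusters, and the 6 largest held 14.1 ± 1.57% of counts (10.6% to 15.2%). The largest was the pair Mir29a and Mir29b-1 (chr6:31062673-31063088, minus strand) with 4.54 ± 1.79%, which is almost wholly miR-29a-3p (99.5%) since miR-29b-3p also has a copy on chromosome 1. Its share was 0.508% in library 5 and 4.94% to 5.59% in the other libraries. The let-7a-1, let-7f-1 and let-7d cluster (chr13:48536024-48538260, minus strand) held 1.76 ± 0.386%. The cluster of Mir99b, Mirlet7e and Mir125a (chr17:17830194-17830876, plus strand) held 1.60 ± 0.151%, led by miR-125a-5p and let-7e-5p. Mir191 and Mir425 (chr9:108568325-108568850, plus strand) held 1.17 ± 0.142%, of which 95.2% was miR-191-5p. When reads of multi-copy microRNAs were divided equally over their copies, the miR-29a and miR-29b-1 pair held 8.11 ± 2.21% and Mir29b-2 with Mir29c (chr1:195037050-195037621) 4.51 ± 0.766%.

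The microRNAs of the imprinted Dlk1-Dio3 region on distal chromosome 12 are made from the maternal copy and are typical of brain. This region gave the steadiest 2 of the 6 largest clusters of sequence-matched names, as shares of the library total. The 38 hairpins at chr12:109709065-109747949 carry 71 sequence-matched names, of which 70 were detected, and together held 2.56 ± 0.119% of counts. Arms of these hairpins without a matched sequence are not in the sum, among them miR-376c-3p (17922 reads over the 7 libraries) and miR-487b-3p (16856 reads). The 14 hairpins at chr12:109563710-109595387 carry 26 sequence-matched names and held 2.47 ± 0.0717%. Together the clusters held 4.72% at the lowest and 5.24% at the highest, a CV of 3.51%. The larger cluster was led by miR-376a-3p (17.6% of it), miR-376b-3p (9.75%), miR-495-3p (7.88%) and miR-154-5p (6.19%), and 35 of its names were at or above 100 CPM, between 114 and 4497 CPM. The smaller was led by miR-434-3p (39.2%), miR-136-5p (27.8%) and miR-127-3p (7.57%). miR-127-3p, which is complementary to the paternal transcript Rtl1, had 1519 CPM at the lowest, 1838 at the median and 2571 at the highest, in library 3. The steadiness belonged to the sum: the 47 sequence-matched members at or above 100 CPM had a median CV of 13.2%, against 13.7% for the 203 other microRNAs at that level. Those 203 include unmatched names from the same hairpins, such as miR-376c-3p and miR-487b-3p, so they are not all from outside the region. Still, 5 of the 10 least variable microRNAs on the CPM scale lay in this region.

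Arm use was compared within hairpins, where both counts come from the same library and no scaling is needed. Of 769 hairpins with both arms listed under the same name, 267 had at least 10 reads in every library. Hairpins in which only the minor arm's name carries a copy number, such as let-7a-1-3p beside let-7a-5p, were not paired. The abundant miR-29b, miR-138, miR-125b, miR-218, let-7a, let-7c and let-7f are therefore absent here. The 5p arm held more reads in all 7 libraries for 117 of them and the 3p arm for 131, which leaves 19 without a constant major arm. The major arm held a median of 95.2% of a hairpin's reads (quartiles 79.04% and 99%). It held at least 90% in 166 hairpins and at least 99% in 66, and 21 hairpins had a 5p share between 40% and 60%. Among the 168 hairpins at or above 100 CPM, 87 had a mean 5p share above 50% and 81 below it. The SD of their 5p share between animals had a median of 0.907 percentage points. Over the reads of all 267 hairpins, 34.1 ± 2.44% lay on 5p arms, which is not a share of the whole profile. Without miR-124 the share was 54.5 ± 3.27%, because 99.9% of the miR-124 reads were 3p.

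The 4 hairpins below are shown with both annotated arms in capitals, to set the sequences beside their arm shares: Mir101b is almost wholly 3p, Mir191 almost wholly 5p, and Mir677 and Mir770 are near equality.
Mir101b (chr19:29135279-29135375, plus strand): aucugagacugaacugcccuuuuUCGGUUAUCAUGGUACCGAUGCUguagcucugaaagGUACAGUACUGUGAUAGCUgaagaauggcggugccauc
Mir191 (chr9:108568319-108568392, plus strand): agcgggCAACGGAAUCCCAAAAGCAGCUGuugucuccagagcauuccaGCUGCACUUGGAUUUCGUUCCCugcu
Mir677 (chr10:128085286-128085363, plus strand): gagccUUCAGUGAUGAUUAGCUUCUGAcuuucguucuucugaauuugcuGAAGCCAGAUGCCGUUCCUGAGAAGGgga
Mir770 (chr12:109563692-109563785, plus strand): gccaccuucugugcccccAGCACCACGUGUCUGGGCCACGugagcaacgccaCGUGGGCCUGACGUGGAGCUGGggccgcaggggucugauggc
Among the 168 hairpins at or above 100 CPM, the lowest 5p share was that of miR-101b, with 6 reads on the 5p arm and 51742 on the 3p arm over the 7 libraries (0.0101 ± 0.0112%). miR-344, miR-23a, miR-19a and miR-3102 followed, with mean 5p shares of 0.0458% to 0.0976%. At the other end of these, miR-191 had 215956 reads on the 5p arm and 354 on the 3p arm (99.83 ± 0.0247%), and miR-195a, miR-30b, miR-18a and miR-30d had 99.84% to 99.94%.

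**Figure D2:**
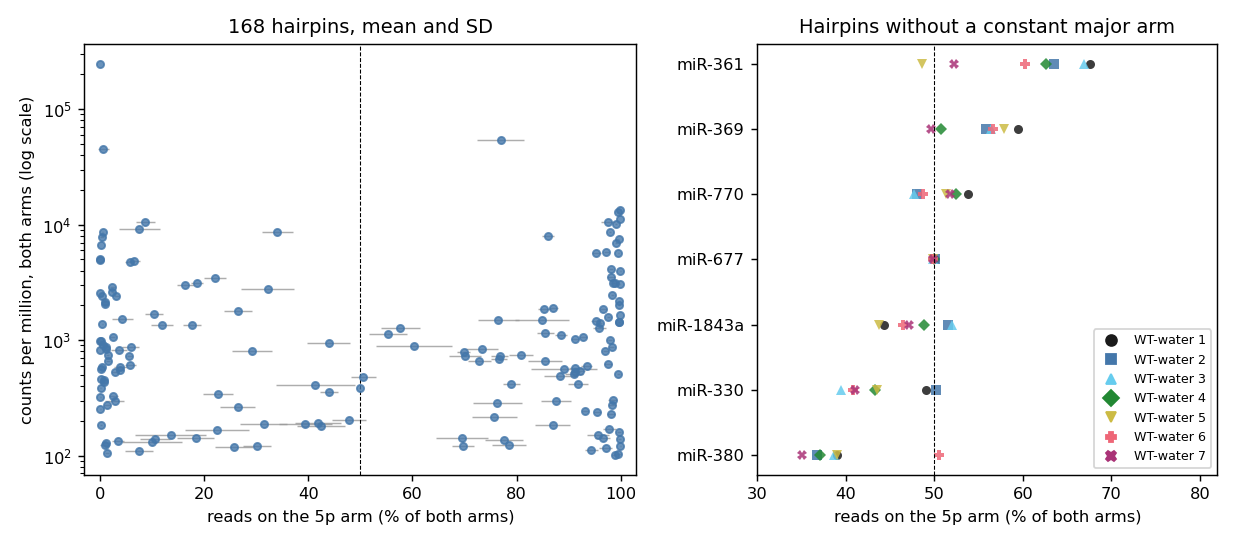
Left, mean 5p share with SD over 7 libraries against the mean level of both arms (CPM, log scale) for 168 hairpins; right, the 5p share in each library for the 7 hairpins at or above 100 CPM whose major arm was not constant. Most points lie near 0% or 100%, and the 7 hairpins on the right scatter about the dashed line at 50%, with miR-677 on it in every library.

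Of the 19 hairpins whose major arm was not constant, 7 had at least 100 CPM: miR-380, miR-330, miR-1843a, miR-677, miR-770, miR-369 and miR-361. For miR-361 the 5p share was 48.6% at the lowest (library 5), 62.7% at the median and 67.6% at the highest (library 1). For miR-369, in the larger Dlk1-Dio3 cluster, it was 49.6% at the lowest, 56.4% at the median and 59.5% at the highest. For miR-770, at the start of the smaller cluster, it was 47.7%, 51.3% and 53.8%, and 4 libraries had more 5p reads and 3 more 3p reads. Other hairpins with many reads on both arms had the same major arm in every library. The endothelial miR-126a had 34.1 ± 3.03% on the 5p arm, miR-136 had 86.0 ± 1.22% and miR-132 had 22.1 ± 2.17%.

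miR-677 was closer to equality than counting of independent reads would give. Its 5p share was 49.8% at the lowest, 49.9% at the median and 50.1% at the highest, an SD of 0.0971 percentage points where binomial counting alone gives 1.68. In each library its arms differed by at most 4 reads, with 645 to 1376 reads in total. miR-3618 and miR-7068 also stayed between 49% and 51% in all 7 libraries, with SDs of 0.390 and 0.734 percentage points against 3.56 and 5.44 from counting. The largest difference between their arms was 7 reads for miR-3618 and 2 reads for miR-7068. In GENCODE release M21 a 72-base snoRNA is annotated within Mir677 on the same strand (chr10:128085289-128085360), inside Atp5b. Whether single reads were counted for both arms cannot be read from a table of counts.

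The major arm and the minor arm also differed in their first base, which sits in a pocket of Argonaute that favours U or A. Both sequences and a constant major arm were available for 131 hairpins at or above 100 CPM. The major arm began with U in 72 of them (55.0%) and the minor arm in 19 (14.5%). U stood first on the major arm alone in 62 hairpins, on the minor arm alone in 9, on both in 10 and on neither in 50. Among major arms, U was first in 41 of 72 that were 5p and in 31 of 59 that were 3p. Minor arms were not split in this way, so the difference between major and minor arms was not compared by position. Across mature microRNAs with a sequence, 46.8% of the 222 at or above 100 CPM began with U, against 39.6% of the 926 detected below that level and 40.8% of the 527 without a read. Weighted by reads, 73.7 ± 2.62% of the sequence-matched counts began with U and 20.2 ± 2.06% with A. Lengths of 22 bases made up 59.5% of the names at or above 100 CPM and 42.8% of the detected names below it. These are descriptions of names that share families and loci and were not tested.

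Of 198 microRNAs at or above 100 CPM with a sequence and a single genomic position, 84 lay in an intron of another gene on the same strand, 50 overlapped an exon and 64 lay in no other annotated gene. miR-128-3p comes from introns of R3hdm1 and Arpp21, miR-103-3p from introns of Pank3 and Pank2, and miR-338-3p, a microRNA of oligodendrocytes, from an intron of Aatk. miR-126a-3p overlaps an exon of the endothelial gene Egfl7.

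The tissue label was checked against lists of microRNAs known from single cell types. The 14 neuron-enriched microRNAs were all detected in every library. They summed to 388845 CPM at the lowest (library 4), 405662 at the median and 460515 at the highest (library 5), a CV of 6.39%. Most of the sum was miR-124-3p (mean 248182 of 418516 CPM). On the CPM scale 8 of the 14 were lowest in library 6 and 3 were highest there, miR-124-3p among them. With TMM scaling 8 were lowest and 0 highest in library 6, and with DESeq2 size factors 8 and 2, so the highest places depend on the scaling. The small CV therefore belonged to the sum and not to each member. Vessel microRNAs came next, with 12112 CPM at the lowest, 16683 at the median and 19587 at the highest, led by miR-126a-3p and the smooth muscle microRNA miR-145a-5p. Oligodendrocyte microRNAs, led by miR-338-3p and miR-219a-5p, summed to 5627 CPM at the lowest, 7132 at the median and 7843 at the highest. Microglia and immune microRNAs summed to 2566 CPM at the lowest, 2717 at the median and 3327 at the highest, most of it miR-150-5p. In a homogenate, fewer cells of a type and less RNA per cell cannot be told apart.

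Markers of other tissues were low. The hindbrain and spinal cord microRNAs miR-10a-5p, miR-10b-5p, miR-196a-5p and miR-196b-5p summed to 5.42 to 25.2 CPM, and miR-196b-5p had no read in any library. Muscle microRNAs summed to 251.5 to 345 CPM, led by miR-1a-3p, and miR-208a-3p had no read. Endocrine microRNAs, almost wholly miR-375-3p, summed to 26.8 to 76.9 CPM, and epithelial and sensory microRNAs of the miR-200 and miR-183 groups to 65.9 to 241.6 CPM. Red blood cell microRNAs, led by miR-451a, were higher than these, with 1119 CPM at the lowest (library 1), 1609 at the median and 2605 at the highest (library 4).

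**Figure D3:**
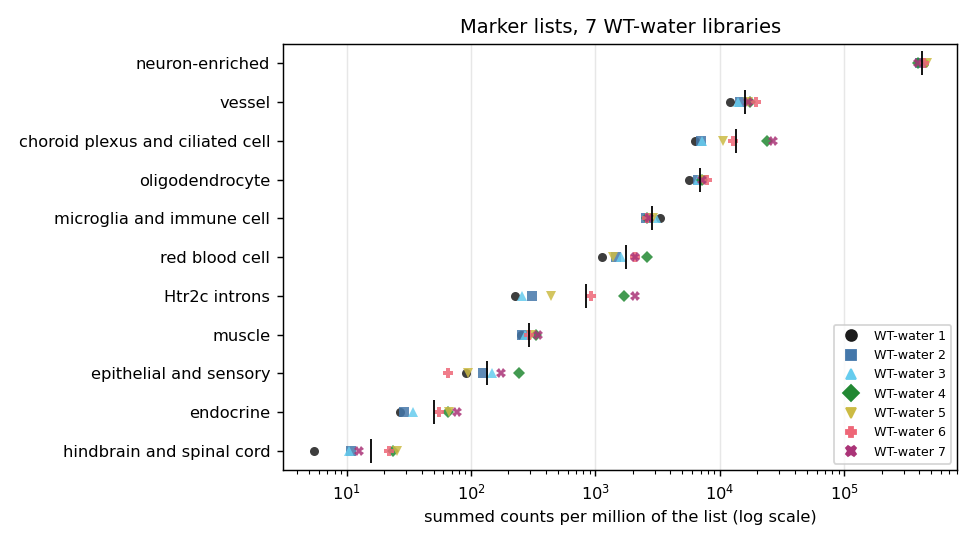
Summed CPM (log scale) of each marker list; each symbol is 1 of the 7 WT-water libraries and the vertical tick is the mean. Neuron-enriched microRNAs are tightly grouped at 388845 to 460515 CPM, while the choroid plexus and ciliated cell list (6348 to 26764 CPM) and the Htr2c intron list (224 to 2078 CPM) spread widely with libraries 4 and 7 at the top.

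Choroid plexus and ciliated cell microRNAs differed between animals more than those of any other cell type or tissue listed, by CV. Their sum was 6348 CPM at the lowest (library 1), 10573 at the median and 26764 at the highest (library 7), a CV of 62.1%. miR-204-5p, encoded in an intron of Trpm3 (chr19:22750605-22750672) and abundant in choroid plexus epithelium, had 4996 CPM at the lowest (library 1), 6915 at the median and 21760 at the highest (library 7). Libraries 4 and 7 were far above the rest for it, at 17867 and 21760 CPM, while libraries 1, 2 and 3 lay between 4996 and 5343 CPM. miR-34b-5p, a microRNA of multiciliated cells, had 660 CPM at the lowest (library 1), 1760 at the median and 2978 at the highest (library 4).

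The microRNAs within introns of Htr2c, the serotonin 2C receptor gene that is strongly expressed in choroid plexus, were ordered in a similar way, with libraries 1 to 3 lowest and 4 and 7 highest. Their sum was 224 CPM at the lowest (library 1), 438.6 at the median and 2078 at the highest (library 7), a CV of 89.3%. miR-1298-5p (hairpin at chrX:147064905-147065002) had 60.7 CPM at the lowest (library 1), 183 at the median and 1541 at the highest (library 7). Libraries 4 and 7 were the 2 highest for 6 of 7 choroid plexus and ciliated cell microRNAs detected in all libraries and for 9 of 9 of the Htr2c introns, but for 0 of 14 neuron-enriched microRNAs. Other lists lay between: libraries 4 and 7 were the 2 highest for 3 of 6 epithelial and sensory microRNAs, 1 of 5 vessel, 1 of 4 red blood cell and 0 of 4 oligodendrocyte microRNAs. They were also the 2 highest for the sums of the epithelial and sensory list (241.6 and 172.9 CPM) and of the muscle list (331.4 and 345 CPM). Libraries 4 and 7 were picked out by the choroid plexus and Htr2c lists, and the 9 Htr2c names are arms of hairpins in a single gene. Library 4 or 7 was the highest for 6 of 7 choroid plexus, 9 of 9 Htr2c and 2 of 14 neuron-enriched microRNAs. This held for 5 of 6 epithelial and sensory, 3 of 4 red blood cell, 2 of 4 oligodendrocyte and 1 of 5 vessel microRNAs. Of the 250 microRNAs at or above 100 CPM, library 4 was the highest for 37 and library 7 for 36. For the choroid plexus, Htr2c and neuron lists, the counts with libraries 4 and 7 as the 2 highest were the same with TMM scaling and DESeq2 size factors. The counts with library 4 or 7 as the highest were not repeated with these scalings. The second principal component, with 29.5% of the variance, set libraries 4 and 7 (scores -3.14 and -3.49) opposite libraries 1, 2 and 3 (scores 2.31 to 3.65). Its largest weights were those of miR-1298-5p (-4.43), miR-204-5p (-2.04) and miR-34b-5p (-1.97), so it restates these microRNAs and adds no separate evidence. Library 4 has a code beginning with G and library 7 with H. How much choroid plexus each dissection held was not measured apart from these microRNAs, and its part in the result was not tested.

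The spread between animals was far above counting error for most microRNAs. Among the 250 at or above 100 CPM the median CV was 13.6% (quartiles 10.7% and 19.3%), where counting alone gives a median of 2.61%. The CV was under 10% for 41, over 25% for 35 and over 50% for 10. The level of miR-30d-5p, a member of the miR-30 family, was the most even on this scale, with 12805 CPM at the lowest, 13406 at the median and 13871 at the highest (CV 3.07%). miR-434-3p followed with 9209, 9596 and 10043 CPM (CV 3.14%), and then miR-3068-5p, miR-154-5p, miR-185-5p, miR-379-5p, miR-582-5p, miR-337-3p, miR-376b-3p and miR-344-3p, with CVs of 4.52% to 6.01%. In none of these 10 was a single library set apart from the rest. With DESeq2 size factors the CVs of miR-30d-5p and miR-434-3p were 8.62% and 7.86%, since library 1 is scaled up and library 5 down, and miR-382-3p had the lowest CV (4.01% with DESeq2 size factors, 4.25% with TMM).

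**Figure D4:**
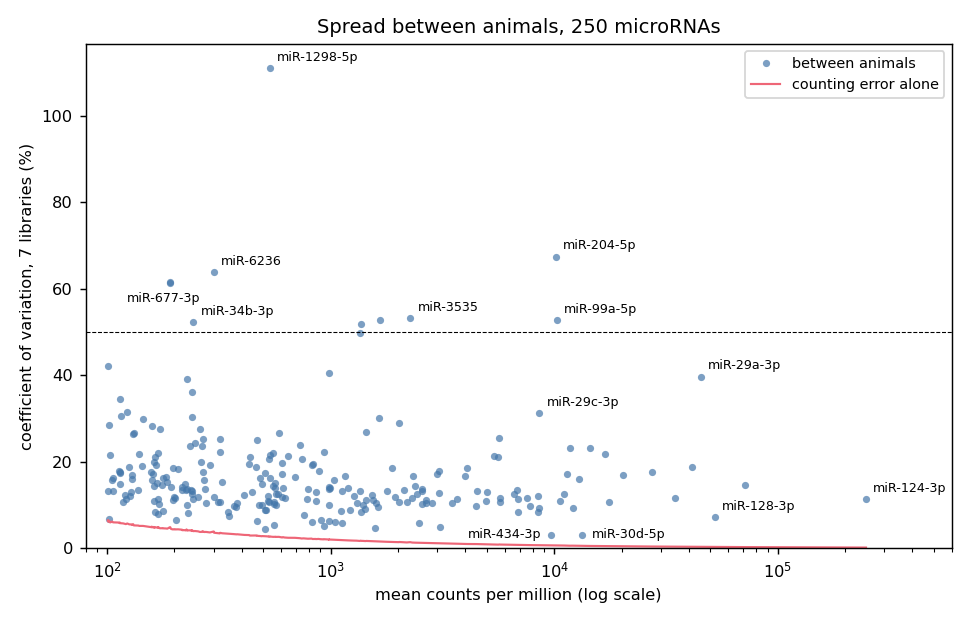
Coefficient of variation over the 7 libraries (percent) against mean CPM (log scale) for the 250 microRNAs at or above 100 CPM; the red line is the value from counting error alone and the dashed line marks 50%. Every point lies above the red line, and 10 microRNAs, led by miR-1298-5p at 111.1%, lie above 50%.

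The 10 microRNAs over 50% were miR-1298-5p (111.1%), miR-204-5p (67.5%), miR-6236 (63.9%), both arms of miR-677 (3p 61.5%, 5p 61.4%), miR-3535 (53.3%), miR-99a-5p (52.8%), miR-34b-5p (52.7%), miR-34b-3p (52.3%) and miR-5121 (51.9%). Without library 1 or without library 4 the number was 6, and without any other library it was 7 to 11. They followed different libraries. miR-204-5p, miR-34b-5p, miR-34b-3p and miR-1298-5p were highest in library 4 or 7. miR-3535 and miR-5121 were highest in library 2 and lowest in library 1, and miR-6236 and both arms of miR-677 were highest in library 6. miR-3535 had 769.5 CPM at the lowest, 2205 at the median and 4052 at the highest, and miR-5121 had 479, 1343 and 2474 CPM.

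Of those 10, 4 overlap the annotation of another small RNA on the same strand: both arms of miR-677, miR-3535 (snoRNA Gm24148, within Ncl) and miR-5121 (Snord33, within Rpl13a). In all, 10 names at or above 100 CPM overlap a snoRNA or scaRNA. Their median CV was 22.4% (4.52% to 61.5%), against 13.5% for the 212 with a position and no such overlap. The 10 include both arms of miR-677, whose counts are nearly equal, so they are not 10 separate values. The median lies between miR-1839-5p (16.3%) and miR-1843b-3p (28.5%) and would be the lower of these with miR-677 counted once. The 10 summed to 3584 CPM at the lowest (library 1), 6354 at the median and 9356 at the highest (library 2). A count under these names may hold fragments of the host snoRNA, which the table does not separate.

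miR-99a-5p, encoded next to let-7c-1 in an intron of Mir99ahg on chromosome 16, lay at separate levels. Libraries 2, 3 and 6 had 14014, 16249 and 17421 CPM, and libraries 1, 4, 5 and 7 had 7131, 6448, 4511 and 6052 CPM. miR-100-5p, which differs from it at a single base, had 1426 CPM at the lowest, 1759 at the median and 2833 at the highest. It was also higher in libraries 2, 3 and 6 (2367.5, 2682.5 and 2833 CPM) than in the others (1426 to 1759 CPM). The ratio of miR-99a-5p to miR-100-5p was 3.16 at the lowest, 4.59 at the median and 6.15 at the highest. The opposite arm miR-99a-3p had a CV of 18.3%, against 52.8% for miR-99a-5p. let-7c-5p also has a copy on chromosome 15, so the neighbouring hairpin can be followed only by its own 3p arm. That arm, let-7c-1-3p, had 43.6 CPM at the lowest (library 1), 74.97 at the median and 124.8 at the highest (library 2), and library 6 was its second highest.

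**Figure D5:**
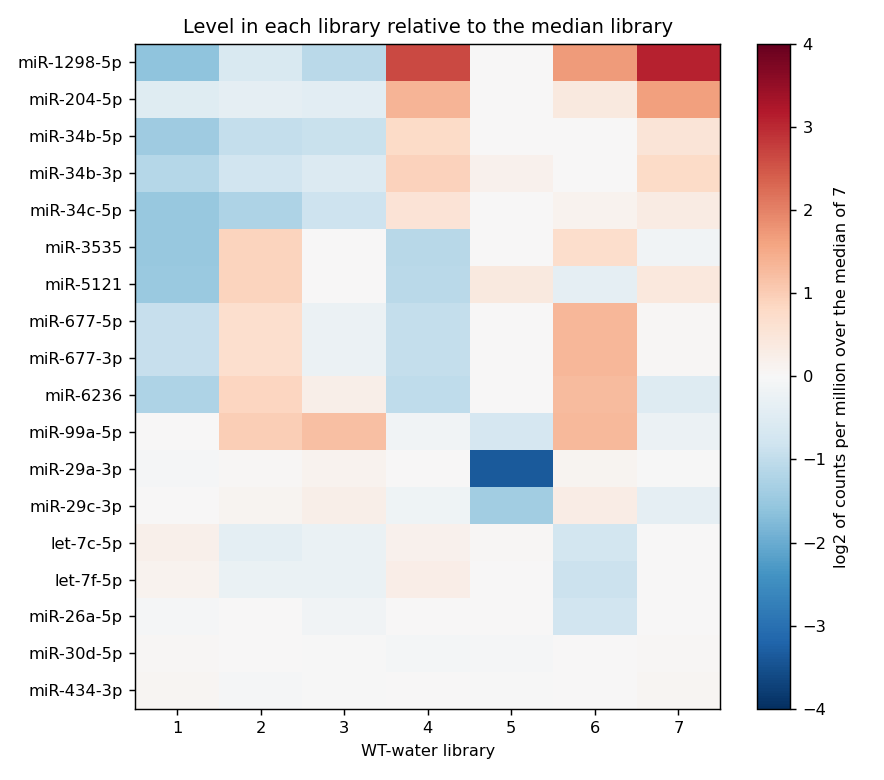
Log2 of the CPM in each WT-water library over the median of the 7, for 18 microRNAs described above; red is higher and blue lower than the median library. Libraries 4 and 7 are high for miR-1298-5p, miR-204-5p and miR-34b-5p, library 5 is low for miR-29a-3p and miR-29c-3p, library 6 is low for let-7c-5p, let-7f-5p and miR-26a-5p, and miR-30d-5p and miR-434-3p are even throughout.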

How the data were processed

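The authors deposited 5 tables of read counts for pairs of groups over the same 1966 mature microRNAs, and the 7 WT-water columns were identical in the 3 tables that hold them. The values are whole-number counts with no normalization. The submitters' processing notes name GRCm38 (mm10) as the build and list limma 3.54.1, featureCounts, Subread, BWA and cutadapt 2.3. Their roles, the use of strand and the treatment of reads with several matches are not given in the sources used here. Columns were matched to samples by their labelled codes, and 0 columns were left without a sample. Libraries were named WT-water 1 to 7 by the labels' replicate numbers.

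CPM is the count over the library's total. Families were formed from bases 2 to 8 of RefSeq mature sequences (GRCm38.p6), and positions and host genes came from RefSeq and GENCODE release M21. Python 3.11.15 with pandas 2.3.3 was used, edgeR 4.0.16 and DESeq2 1.42.0 in R 4.3.3 gave alternative scalings, and the functions were checked on simulated data. No group test was made, and single libraries were compared with the others by Dixon's ratio only. The microRNAs named were the 20 most abundant, the extremes of arm share, the leading members of the 10 largest families, 6 largest clusters and marker lists, the 10 most and 10 least variable at or above 100 CPM, and a fixed set. Others (close copies, host genes, miR-126a, miR-136 and miR-132 arms, miR-3618 and miR-7068, miR-382-3p, let-7c-1-3p and miR-99a-3p) were named after their values were seen. The members, lists and rules were chosen with earlier results of these data known. Depth gives the precision: intervals and floors cover counting error only, and PCR duplicates are not removed by molecular identifiers.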

Additional observations from a re-analysis of the deposited data

Results flagged for a closer look

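In 151 values, 1 library was compared with the other 6, and 19 times its gap to the nearest library was above Dixon's critical value for 7 samples. Chance flags about 1 in 20, but the values are not independent: members count again in their family, cluster and arm share, so the numbers below are not numbers of separate events. Library 6 was set apart 10 times, library 5 5 times, and libraries 2 and 3 2 times each. No cause was tested.

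In library 5, miR-29a-3p was far below the others (4884 CPM, against 49169 to 55719), as were the miR-29 seed family (6.38% of counts) and the cluster led by miR-29a-3p (0.508%). The 5p shares of miR-29a (3.00%) and miR-29c (15.8%) were far above those of the other 6 libraries (0.270% to 0.367% and 4.13% to 8.78%).

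In library 6, the low values were miR-125b-5p (17417 CPM), miR-26a-5p (12758 CPM), miR-30a-5p (6376 CPM), miR-30e-5p (2567 CPM) and miR-30b-5p (2668 CPM). The seed families of miR-125b-5p (2.32%), miR-30c-5p (1.68%) and miR-26a-5p (1.31%) were low with them. The minor arm miR-23a-5p was high in library 6 (8.54 CPM, 0.181% of the hairpin's reads).

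In library 3, miR-127-3p (2571 CPM) and miR-425-3p (56.1 CPM) were above the rest. In library 2, the minor arm miR-3102-5p was at 1.35 CPM, 0.421% of the reads of its hairpin, a value that rests on very few reads.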

How the results depend on the processing

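No paired analysis was possible because a single group was described and no group test was made. Requiring 5 reads, 664.6 microRNAs were detected per library. Without miR-124-3p, 84.3 microRNAs held 90% of counts and the 10 largest families 58.85%. The median share of the major arm was 95.7% with at least 100 reads in every library, 93.2% with at least 10 reads summed and 94.4% for single-copy hairpins. Dividing multi-copy reads equally put the 6 largest clusters at 22.02%. The median CV was 17.5% at or above 10 CPM and 23.6% with at least 1 read in every library, where counting error is larger. By edgeR's tagwise dispersion, which shrinks each value towards the trend, 1 microRNA exceeded 50%, where 10 did by the plain CV. Leaving out each library in turn gave 24.2% to 25.3% for miR-124-3p, 57.1% to 58.0% for the 10 most abundant, 43.9% to 45.0% for families, 13.9% to 14.7% for clusters and a median CV of 12.2% to 14.4%. Scaling by TMM raised library 1 by 0.14 and lowered library 5 by 0.09 on the log2 scale, and DESeq2 size factors by 0.16 and 0.11. Families extended by name, and these scalings or the 5 libraries with code G for single microRNAs, were chosen after seeing the data. All 1060 values so obtained for named microRNAs, those leaving out a library included, stayed within 1 SD of the reported means. For the subsets of libraries this was bound to happen, since leaving out so few libraries cannot move a mean by 1 SD. Only the values from the scalings could have gone beyond it. Depth limits the minor arms and microRNAs near 1 read per library.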

Other observations

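The 3p arms let-7a-1-3p and let-7c-2-3p, from hairpins on chromosomes 13 and 15, have the same RefSeq sequence and were listed apart, at 197.8 and 199.7 CPM on average. Names with several genomic copies, 53 in all, held 36.4% of the counts, so the reads of these microRNAs cannot be assigned to a hairpin or its host gene.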
